A study of Mus musculus with 12 samples.

Results

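A set of 38 lysosomal genes was followed through 12 RNA-seq libraries of mouse microglia and of macrophages that had replaced them. The list held 13 hydrolases of sugars and glycosaminoglycans, 8 genes of lipid breakdown and sterol export, 4 genes for proteases, a thioesterase and an acid phosphatase, 4 membrane proteins, 2 transcription factors and 7 subunits of the proton pump. The members were listed by gene symbol, and all 38 were found among the 25904 genes of the table. Every group had 3 libraries, each a pool of 1 to 5 C57BL/6 mice, and the cells of all 4 groups carried Tgfbr2fl/fl, in which Cre can delete the type II receptor for TGF-beta. WT microglia came from Tgfbr2fl/fl mice without Cre, and KO microglia from Cx3cr1CreER/+Tgfbr2fl/fl mice, in which a tamoxifen-inducible Cre occupies 1 allele of Cx3cr1 and is expressed by microglia and other cells that use this promoter. The mice of all 4 groups had received 3 daily doses of 5 mg tamoxifen, 18 to 22 days before the sort. WT and KO macrophages descended from bone marrow of those same 2 genotypes, transplanted into irradiated Cx3cr1CreER/+R26DTA/+ hosts, whose own microglia are killed by diphtheria toxin after tamoxifen, given 6 weeks after transplantation. The labels used here do not give ages. WT cells were gated as F4/80 low and KO cells as F4/80 high, so genotype, Cre and gate cannot be told apart in any comparison of KO with WT. Only macrophages came from irradiated, transplanted hosts whose microglia were killed. Cell origin and this host treatment therefore cannot be told apart in any comparison of macrophages with microglia, nor in the difference of KO effects.

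Lysosomes are acidic organelles in which hydrolases break down what a cell has taken up or no longer needs. The acid comes from the V-ATPase, a rotary pump made of a membrane sector, V0, and a sector in the cytosol, V1, that burns ATP. Microglia and other macrophages are rich in lysosomes because they clear debris, and loss of single hydrolases causes storage diseases in which the brain is often affected. TFEB and TFE3, transcription factors of the MiT family, bind a short palindrome near the start of many lysosomal genes, often called the CLEAR element, whose centre is CACGTG.

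The start regions of the members were read from the RefSeq promoter table (GRCm38.p6, 250 bases before to 50 after each start), to find where this palindrome lies. CACGTG, which reads the same on both strands, occurred in 11 of 33 matched members (33.3%) and in 2187 of 27025 genes of the table (8.09%). The longer TCACGTGA, every copy of which holds a CACGTG, occurred in 4 of 33 members (12.1%) and in 304 of 27025 genes (1.13%). The stretches below hold the matches, in capitals, of 5 members that were higher in KO microglia and of 2, Naglu and Sgsh, that were lower. They are written 5′ to 3′ on the strand of the gene.
Gla, chrX:134601186-134601245, minus strand: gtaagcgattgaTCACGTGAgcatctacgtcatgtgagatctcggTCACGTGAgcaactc
Mcoln1, chr8:3500434-3500493, plus strand: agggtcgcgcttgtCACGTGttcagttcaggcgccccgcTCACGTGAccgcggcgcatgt
Atp6v1a, chr16:44139360-44139419, minus strand: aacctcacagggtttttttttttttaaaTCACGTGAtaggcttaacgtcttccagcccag
Atp6v0d1, chr8:105566061-105566120, minus strand: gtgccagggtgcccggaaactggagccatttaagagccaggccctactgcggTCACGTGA
Lamp1, chr8:13159091-13159160, plus strand: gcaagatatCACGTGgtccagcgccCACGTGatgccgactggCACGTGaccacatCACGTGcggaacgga
Naglu, chr11:101069994-101070053, plus strand: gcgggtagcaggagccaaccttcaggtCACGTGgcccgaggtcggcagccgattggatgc
Sgsh, chr11:119355511-119355568, minus strand: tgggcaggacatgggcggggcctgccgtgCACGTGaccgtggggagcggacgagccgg

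Lamp1 had 4 copies of CACGTG, the first beginning at -61 from its start, and Gla had 2 copies of TCACGTGA, beginning at -228 and -195. In Atp6v0d1 the match spanned the start itself, beginning at -4, and in Atp6v1a it began at -132. Glb1, Gaa, Arsa and Lgmn held 1 CACGTG each and are not printed above. Of these, Glb1 and Arsa were called in neither origin. Of the 11 members with the palindrome, 5 were higher, 3 lower and 3 not called in KO microglia, and of the 22 without it, 10 were higher, 5 lower and 7 not called. In KO macrophages, 5 of the 11 were higher and 1 lower, against 11 and 2 of the 22. Of all genes tested, 21.9% were higher and 20.6% lower in KO microglia, and 16% and 15.4% in KO macrophages. A match describes the letters and does not show that a factor bound there, and members without a match were not shown to lack such binding.

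Libraries held 2615404 to 6364994 reads in genes, and values below are normalized counts, the authors' log2 values taken back to a linear scale. Whole-gene counts of Tgfbr2 were 2495 to 3172 in WT and 2078 to 2256 in KO microglia, and 2997 to 3486 and 2068 to 2468 in WT and KO macrophages. They do not resolve the deleted part of the gene. The summed counts of 7 microglia markers were 39221 to 51835 in WT and 3167 to 3726 in KO microglia, while WT macrophages had 12647 to 13630 and KO macrophages 3714 to 4157, and none of the 7 was at 0 in any group. The 7 markers of border-associated macrophages summed to 93.2 to 112 in WT microglia and 18299 to 23927 in both KO groups, with 6013 to 7254 in WT macrophages. In KO cells, lists of neurons (6 genes, 76.8 to 138 against 14.1 to 52.1 in WT cells), astrocytes (5 genes, 125 to 249 against 37.0 to 100.4), monocytes (5 genes, 209 to 427 against 47.6 to 223) and lymphocytes (6 genes, 4.91 to 14.4 against 0.881 to 3.87) were also higher. The sum of vessel cell markers (4 genes) went in opposite directions, with 32.4 to 38.3 in KO against 124 to 236 in WT microglia and 88.0 to 151 in KO against 53.7 to 68.3 in WT macrophages. Only 2 of these 4 could be tested, and 1 was lower in KO microglia, while 1 was higher and 1 lower in KO macrophages. Oligodendrocyte markers (5 genes) summed to 381 to 420.4 in KO against 286 to 312 in WT microglia and overlapped in macrophages. Of the 4 tested, 3 were higher and 1 lower in KO microglia. The sum of 6 markers shared by macrophages was 19689 to 22439 in KO against 38258 to 43961 in WT microglia. In macrophages it was 18231 to 20166 in KO against 20398 to 22679 in WT. The 6 did not move together, with 1 higher and 3 lower in KO microglia, and 2 higher and 2 lower in KO macrophages. Adgre1 was called higher in both origins, with means of 1409 and 3862 in WT and KO microglia, and 2598 and 3792 in WT and KO macrophages. Of the rarer markers, Ly6c2 of the monocyte list and Nkg7, Cd79a and Ms4a1 of the lymphocyte list were at 0 in all WT microglia libraries, and the part of these cell types in the differences below was not tested. Mitochondrial genes took 5.84% to 7.68% of reads in KO against 3.86% to 4.36% in WT microglia, without overlap, and 4.61% to 6.43% against 3.18% to 5.35% in macrophages, and the part of this was not tested either. The KO macrophage library of replicate 1 was the shallowest, and its mean correlation with its group was 0.936 against 0.958 for the other 2 and 0.972 to 0.981 in the other groups. Within its group, 22 of the 38 members were highest there, as 22 were in WT microglia replicate 1 and 21 in KO microglia replicate 3. Among WT microglia, 23 of the 38 were lowest in replicate 3. In bulk libraries, fewer cells of a type and less RNA per cell cannot be told apart.

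Most proton pump subunits on the list rose in KO cells, 6 of 7 in microglia and 5 of 7 in macrophages, while the hydrolases split. Of 12 further pump subunit genes tested, 5 were higher and 3 lower in KO microglia, and 2 higher and 1 lower in KO macrophages. In KO against WT microglia, 18 of 38 members were higher and 9 lower at an adjusted p under 0.05, where 21.9% of all 12519 genes tested were higher and 20.6% lower. In KO against WT macrophages, 18 members were higher and 4 lower, against 16% and 15.4% of all genes. The median log2 change of the members was 0.30 in microglia and 0.29 in macrophages, and that of all genes tested -0.01 and 0.00. Without the KO macrophage library of replicate 1, the macrophage counts were 16 higher and 4 lower, with Gla and Atp6v0d1 no longer called. Calls lost under total scaling, or when 1 library or another group was left out of the fit, were Hexa, Ids and Lamp2 in microglia and Gla, Gusb, Man2b1, Npc2 and Atp6v0d1 in macrophages. Atp6v0d2 passed the filter on low values through KO libraries and Acp5 through macrophages, so each had to differ between some groups; with no filter the counts were again 18 and 9 in microglia and 18 and 4 in macrophages.

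**Figure D1:**
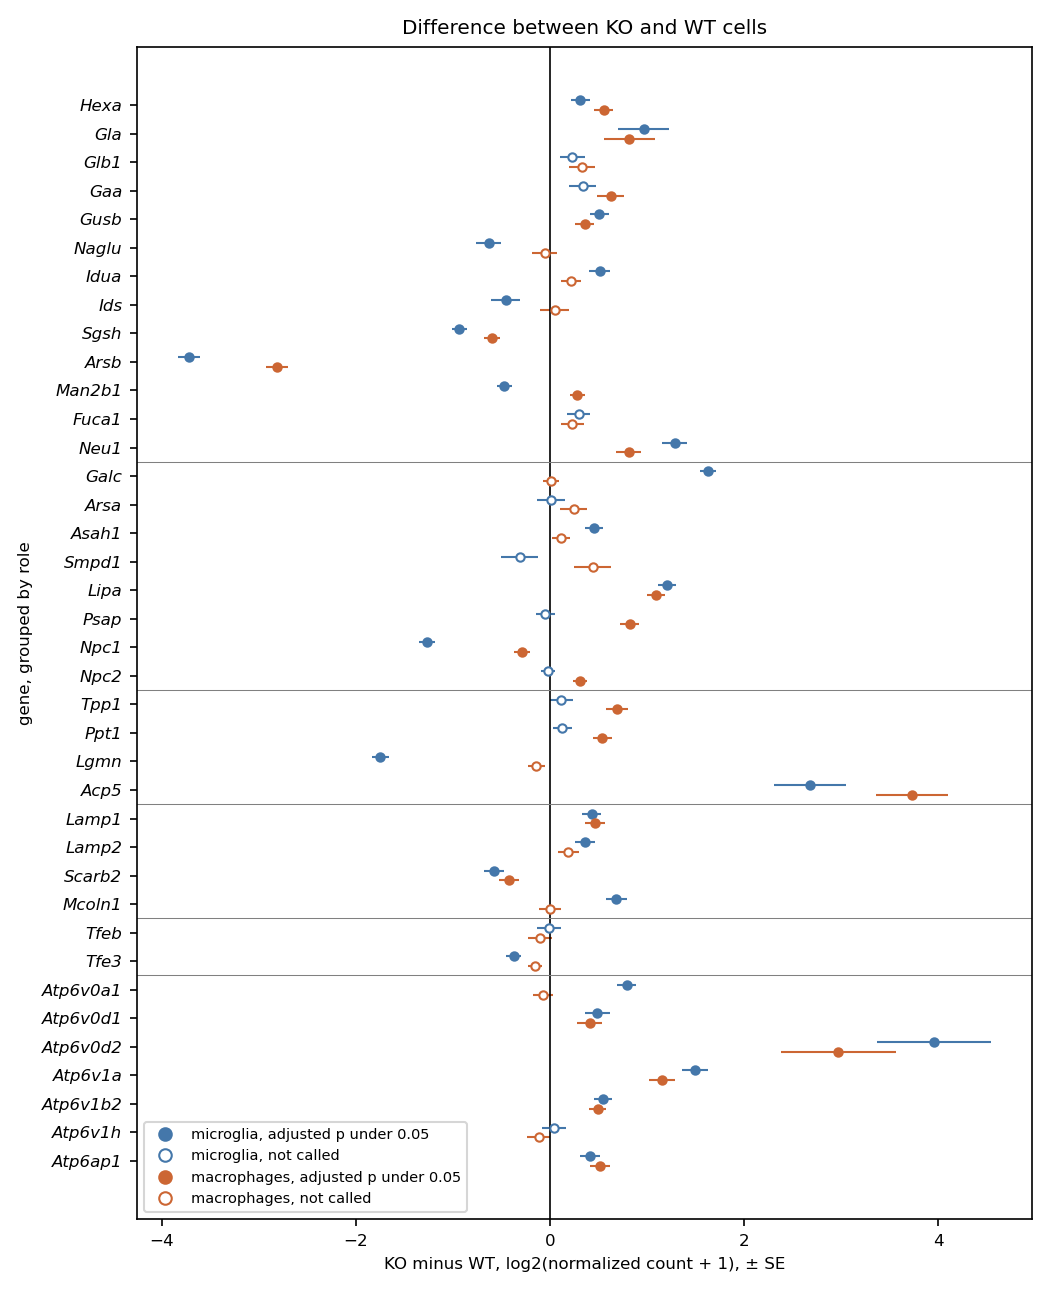
Difference between KO and WT cells for the 38 members, as the difference of mean log2(normalized count + 1) with its standard error on the x axis, in microglia (blue) and macrophages (orange). Filled points have an adjusted p under 0.05, and lines separate the roles. The 12 members called higher in both origins lie to the right of 0, and Arsb lay farthest to the left in both.

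Called higher in both origins were 12 members, namely Hexa, Gla, Gusb, Neu1, Lipa, Acp5, Lamp1, Atp6v0d1, Atp6v0d2, Atp6v1a, Atp6v1b2 and Atp6ap1. Another 4, Sgsh, Arsb, Npc1 and Scarb2, were called lower in both. Man2b1 was lower in KO microglia and higher in KO macrophages. Called in microglia alone were 6 higher members (Idua, Galc, Asah1, Lamp2, Mcoln1, Atp6v0a1) and 4 lower ones (Naglu, Ids, Lgmn, Tfe3), and called in macrophages alone were 5 higher members (Gaa, Psap, Npc2, Tpp1, Ppt1). The remaining 6, Glb1, Fuca1, Arsa, Smpd1, Tfeb and Atp6v1h, were called in neither. Of all genes tested, 21.9% were higher and 20.6% lower in KO microglia, and 16% and 15.4% in KO macrophages. The shares of all genes with each pattern over both origins were not computed, so these pattern counts describe the members only. Some alternative settings added calls: Fuca1 (adjusted p = 0.0532 in the fit reported here) was called in KO microglia under 7 of them and Gaa under 6, and in KO macrophages Glb1 was called under 2, and Lgmn and Smpd1 under 1 each. The plot of KO effects shows the members in this order of roles. Whether an effect differed between origins was tested as the difference of the effects, and 10 members had a more positive KO effect in macrophages than in microglia and 3 a more negative one, against 13% and 12.9% of all genes. With total scaling the split was 5 and 4, with upper-quartile scaling 7 and 4, and without the KO macrophage library of replicate 1 it was 8 and 7.

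**Figure D2:**
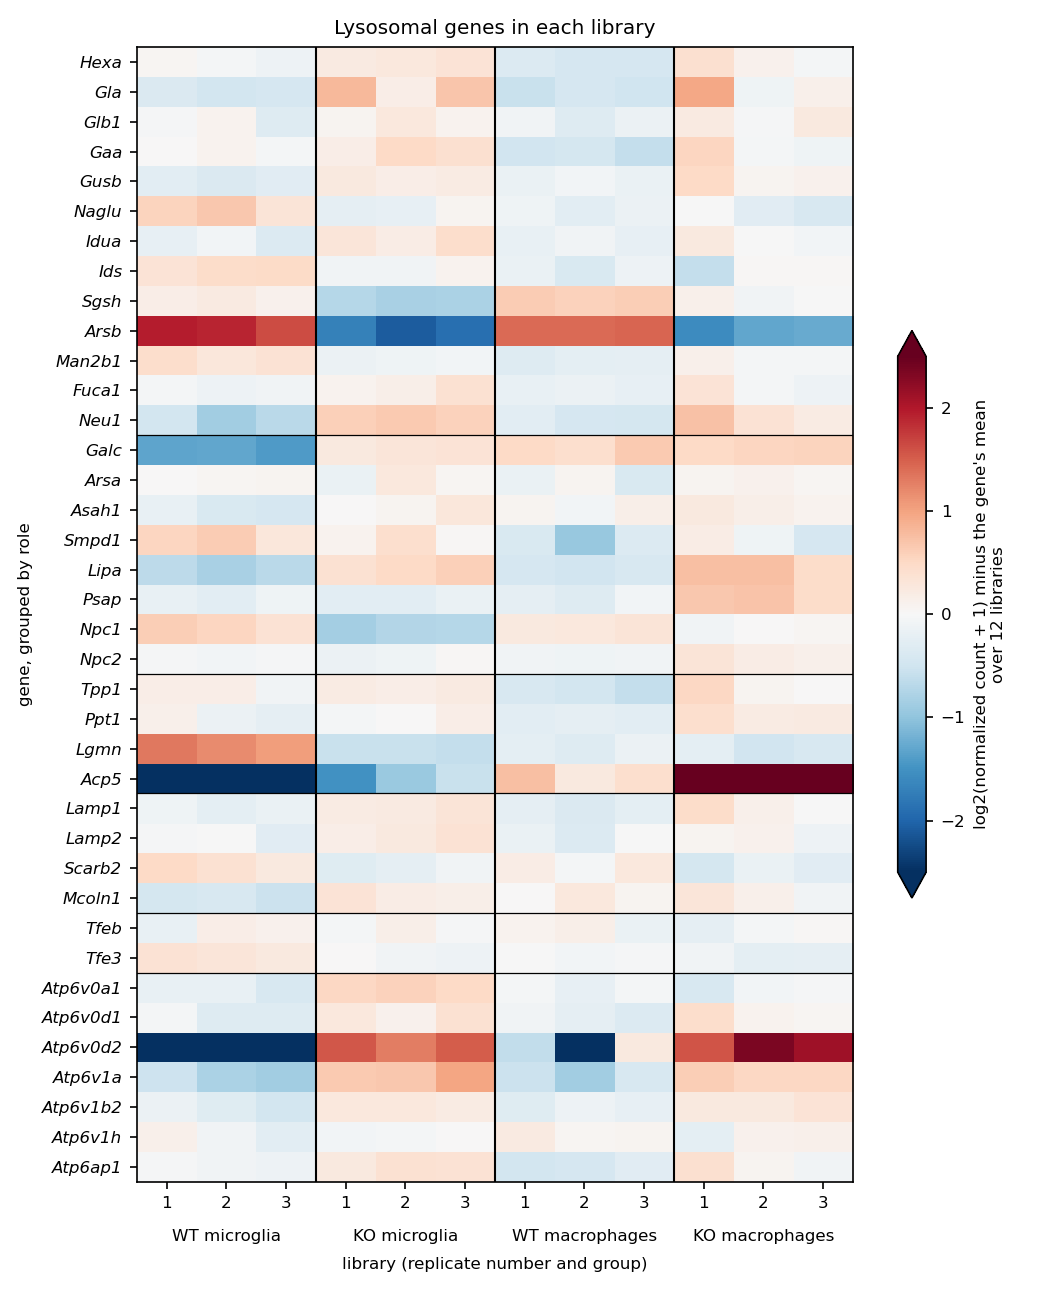
Log2(normalized count + 1) of the 38 members in each of the 12 libraries, after subtraction of each gene's mean over the libraries; rows are genes by role, columns are libraries by group, and the colour scale ends at 2.5 in either direction. Arsb is low in all 6 KO libraries, Galc is low in the 3 WT microglia libraries, and Lgmn is high in those same 3.

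Among the 13 hydrolases of sugars and glycosaminoglycans, 5 were higher and 5 lower in KO microglia, against 21.9% and 20.6% of all genes. In KO macrophages 6 were higher and 2 lower, against 16% and 15.4% of all genes. Arsb (chr13:93771630-93943016) encodes arylsulfatase B, which removes sulfate from dermatan and chondroitin sulfate. Its counts were 2445, 2341 and 1945 in WT microglia against 192, 146.5 and 168 in KO microglia. WT macrophages had 1664, 1674 and 1709, and KO macrophages 208, 251 and 259. Every KO library lay far below every WT library of its origin. The log2 change was -3.72 ± 0.11 (SE, adjusted p = 9.71e-13) in microglia, 13.3-fold lower, and -2.81 ± 0.11 (adjusted p = 2.66e-10) in macrophages, 7.02-fold lower, and it was larger in microglia (difference 0.91 ± 0.16, adjusted p = 0.000703). Exons of Gm26527 on the opposite strand overlap 32.3% of the exon bases of Arsb, and Gm26527 itself had at most 9.02 normalized counts in any WT microglia library.

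Neu1 (chr17:34931253-34935953), the sialidase that trims sialic acid from glycoproteins, went the other way. It had 248, 186 and 213 counts in WT microglia against 518, 541 and 510 in KO microglia, with 283, 254 and 252 in WT and 570, 437 and 394 in KO macrophages. The groups did not overlap in either origin. The log2 change was 1.28 ± 0.13 (adjusted p = 9.11e-07) in microglia and 0.81 ± 0.13 (adjusted p = 0.00024) in macrophages. Gla, the alpha-galactosidase that is lacking in Fabry disease, rose from 33.2 ± 1.1 (SD, n = 3) to 67.0 ± 14.9 in microglia (adjusted p = 0.00741). Gusb, the beta-glucuronidase, rose from 836 ± 27 to 1188 ± 37 in microglia (adjusted p = 0.000584) and from 940 ± 31 to 1217 ± 208 in macrophages (adjusted p = 0.0113). Hexa, the alpha subunit of beta-hexosaminidase, rose from 1823 ± 114 to 2264 ± 100 in microglia (adjusted p = 0.0183) and from 1422 ± 51 to 2103 ± 338 in macrophages (adjusted p = 0.000595).

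Enzymes of heparan sulfate breakdown did not move as 1 group. Sgsh, the sulfamidase, fell from 591 ± 25 to 309 ± 12 in microglia (adjusted p = 1.09e-07) and from 802 ± 13 to 530 ± 41 in macrophages (adjusted p = 3.64e-05). Naglu, which removes the glucosamine once it has been acetylated, fell from 360 ± 43 to 231 ± 27 in microglia (adjusted p = 0.0008), and in macrophages it was 223 ± 13 in WT and 215 ± 31 in KO. Ids, the iduronate sulfatase, fell from 274 ± 14 to 199 ± 16 in microglia (adjusted p = 0.0217). Idua, which removes the iduronic acid that Ids has freed of sulfate, rose in KO microglia from 316 ± 30 to 450 ± 39 (adjusted p = 0.000978). In macrophages Ids was 174 ± 16 in WT and 183 ± 42 in KO, and Idua 326 ± 14 and 379 ± 44, neither called.

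Man2b1, the alpha-mannosidase, fell in KO microglia from 3249 ± 190 to 2342 ± 54 (adjusted p = 0.000116) and rose in KO macrophages from 2093 ± 76 to 2547 ± 179 (adjusted p = 0.011). The 2 effects differed by 0.75 ± 0.11 on the log2 scale (adjusted p = 0.000103), and the macrophage call was lost with total scaling and without the WT macrophage library of replicate 1. Gaa, the acid glucosidase of glycogen, rose in macrophages from 393 ± 20 to 620 ± 159 (adjusted p = 0.00313), with 566 ± 28 and 717 ± 87 in WT and KO microglia (adjusted p = 0.0665). Glb1, the beta-galactosidase, had means of 136 to 172 over the 4 groups and Fuca1, the fucosidase, 311 to 407, and neither was called in KO against WT. Summed over the 13 genes, counts were 10984 ± 565 and 9036 ± 277 in WT and KO microglia, and 8797 ± 8 and 9100 ± 1106 in WT and KO macrophages. These sums include Arsb, with means of 2243 and 169 in WT and KO microglia and 1682 and 240 in WT and KO macrophages. They therefore do not show how the other genes moved. The median log2 change of the 13 genes was 0.29 in microglia and 0.28 in macrophages.

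**Figure D3:**
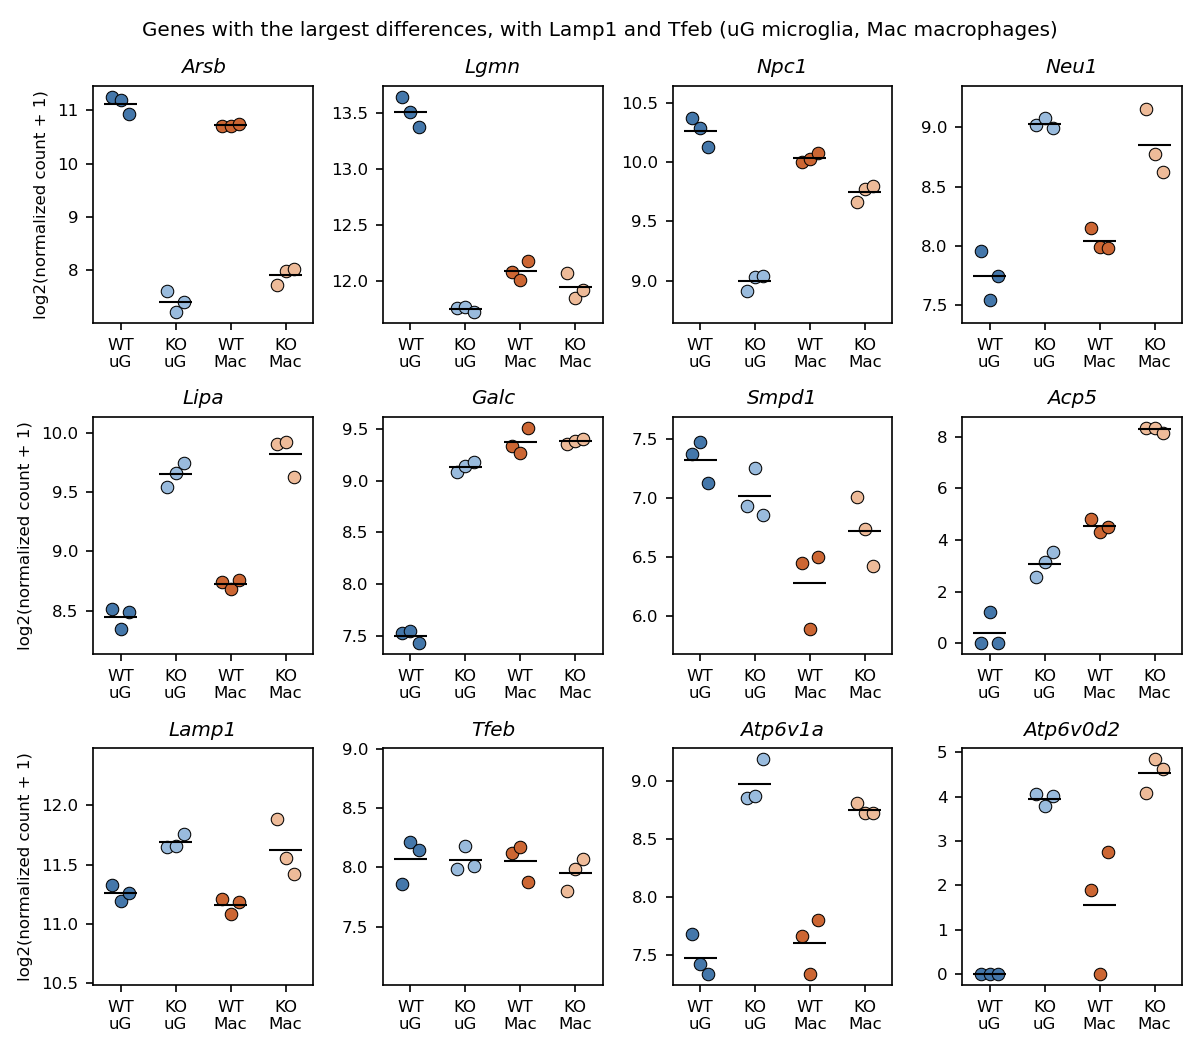
Log2(normalized count + 1) in each library (points, 3 per group) with group means (bars) for the 10 members with a called log2 change of at least 1 in size, and for Lamp1 and Tfeb. Axes differ between panels and none but those of Acp5 and Atp6v0d2 begin near 0; Tfeb is the panel in which the 4 groups overlap.

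Of the 8 genes of lipid breakdown and sterol export, 3 were higher and 1 lower in each origin, with only Lipa and Npc1 shared. The shares of all genes were 21.9% higher and 20.6% lower in microglia, and 16% and 15.4% in macrophages. Lipa (chr19:34492318-34527474) encodes the acid lipase that frees cholesterol and fatty acids from lipoproteins. It had 365, 325 and 358 counts in WT and 744, 809 and 860 in KO microglia, and 426, 410.5 and 433 in WT against 959, 969 and 791 in KO macrophages. It rose 2.30-fold in microglia (1.20 ± 0.09 on the log2 scale, adjusted p = 4.06e-08) and 2.14-fold in macrophages (1.09 ± 0.09, adjusted p = 4.41e-07), without overlap. Npc1, the membrane protein that exports the freed cholesterol, fell instead. Its counts were 1326, 1250 and 1116 in WT and 480, 523 and 525 in KO microglia, and 1024, 1043 and 1082 in WT against 812, 873 and 892 in KO macrophages. The fall was 1.27 on the log2 scale in microglia (-1.27 ± 0.08, adjusted p = 3.89e-09) and smaller in macrophages (-0.29 ± 0.08, adjusted p = 0.0126), and the difference between them passed the test (0.98 ± 0.11, adjusted p = 1.41e-05). Npc2, the soluble protein that hands cholesterol to NPC1, was 706 ± 12 and 696 ± 45 in WT and KO microglia and rose from 683 ± 7 to 847 ± 58 in macrophages (adjusted p = 0.00631).

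Galc (chr12:98202294-98259459), the galactosylceramidase that degrades myelin lipids, was low in WT microglia and at similar levels in the other 3 groups. WT microglia had 184, 187 and 172 counts, KO microglia 541, 563 and 580, WT macrophages 645, 614 and 728, and KO macrophages 651, 666 and 674. The KO effect was 1.63 ± 0.08 in microglia (adjusted p = 2.83e-10) and 0.01 ± 0.08 in macrophages (adjusted p = 0.961), and the 2 differed by -1.62 ± 0.12 (adjusted p = 1.01e-07). Asah1, the acid ceramidase, rose in KO microglia from 1449 ± 126 to 1989 ± 198 (adjusted p = 0.000801) and was 1886 ± 132.6 and 2043 ± 102 in WT and KO macrophages. Arsa, the sulfatase for sulfatide, had means of 114 to 134 over the 4 groups and was not called in any comparison.

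Psap encodes the precursor of the saposins, which present lipids to the hydrolases. It set KO macrophages apart: counts were 12754, 13063 and 10965 there, against 6367 to 7582 in all 9 other libraries. The KO effect was 0.82 ± 0.10 in macrophages (adjusted p = 1.26e-05) and -0.05 ± 0.10 in microglia (adjusted p = 0.728), and the difference was 0.87 ± 0.14 (adjusted p = 0.000246). Smpd1 (chr7:105554360-105558389), the acid sphingomyelinase, had 165, 176.5 and 139 counts in WT microglia against 121, 151 and 115 in KO microglia. WT macrophages had 86.5, 58.5 and 89.7 counts of Smpd1, and KO macrophages 128, 106 and 84.7. Its libraries overlapped between KO and WT in each origin, and the call it received was between the WT groups, 1.04 lower on the log2 scale in macrophages (-1.04 ± 0.19, adjusted p = 0.000488).

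Legumain and the acid phosphatase were the extremes of the remaining enzymes. Lgmn (chr12:102394084-102439813), an asparagine-specific protease that also activates cathepsins, had the highest level per kilobase of all members in WT microglia, 5018 counts per kilobase of exon, and ranked behind Psap in the other 3 groups. WT microglia had 12769, 11630 and 10573 counts and KO microglia 3485, 3493 and 3387, a log2 change of -1.75 ± 0.09 (adjusted p = 3.5e-10). In macrophages it had 4338, 4132 and 4658 counts in WT and 4309, 3708 and 3892 in KO, which overlapped (-0.14 ± 0.09, adjusted p = 0.251). The 2 effects differed by 1.61 ± 0.13 (adjusted p = 3.01e-07). Tpp1, a tripeptidase, and Ppt1, a thioesterase that removes palmitate, are both mutated in neuronal ceroid lipofuscinoses. Tpp1 rose in macrophages from 592 ± 39 to 965 ± 189 (adjusted p = 0.000342) and Ppt1 from 693 ± 9 to 1009 ± 79 (adjusted p = 0.000603), while in microglia they were 884 ± 85 and 955 ± 23, and 786 ± 103 and 855 ± 66.

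Acp5 (chr9:22126727-22135711), the tartrate-resistant acid phosphatase known from osteoclasts, was nearly absent from WT microglia. Counts were 0, 1.29 and 0 there, which is 1 read in all, and 4.91, 7.87 and 10.4 in KO microglia, which is 26 reads. WT macrophages had 27.3, 19.1 and 21.4 and KO macrophages 323, 324 and 282. The 4 groups did not overlap, and KO macrophages were 13.7-fold above WT macrophages (adjusted p = 2.33e-06) and 40.0-fold above KO microglia (adjusted p = 2.57e-07). In microglia the ratio of KO to WT was 22.8, with an exact 95% interval from counting error of 3.75 to 935 (adjusted p = 2.67e-05). Of 11 other genes tied to osteoclasts, 5 could be tested. In KO microglia 1 was higher and 4 lower, against 21.9% and 20.6% of all genes. In KO macrophages 1 was higher and 1 lower, against 16% and 15.4% of all genes. The higher one in both was Mmp9, a gelatinase, which passed the filter on low values only through the KO libraries, with 854 ± 239 counts in KO microglia and 1256 ± 55 in KO macrophages against 0.345 ± 0.598 and 3.43 ± 1.44 in the WT groups. Ctsk, Dcstamp, Ocstamp, Oscar, Calcr and Car2 were under the filter.

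The 4 membrane proteins included 3 that were higher and 1 lower in KO microglia, against 21.9% and 20.6% of all genes. In KO macrophages there was 1 of each, against 16% and 15.4% of all genes. Lamp1 (chr8:13159161-13175338), a main glycoprotein of the lysosomal membrane, ranked the third of all members per kilobase in every group. It had 2569, 2341 and 2456 counts in WT and 3202, 3234 and 3473 in KO microglia, and 2365, 2166 and 2323 in WT against 3790, 3016 and 2747 in KO macrophages. The groups were apart in both origins, with log2 changes of 0.43 ± 0.10 (adjusted p = 0.00298) and 0.47 ± 0.10 (adjusted p = 0.00271). Lamp2 (chrX:38401357-38456454), whose isoforms serve fusion of autophagosomes and chaperone-mediated autophagy, had 1475, 1484 and 1231 counts in WT and 1671, 1780 and 1930 in KO microglia (0.36 ± 0.10, adjusted p = 0.0101). In macrophages Lamp2 had 1328, 1188 and 1499 in WT and 1581, 1608 and 1380 in KO, which overlapped (0.19 ± 0.10, adjusted p = 0.18).

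Mcoln1, a calcium-permeable channel of the lysosomal membrane, rose in KO microglia from 229 ± 11 to 368 ± 27 (adjusted p = 0.000121). It was 342 ± 33 in WT and 343 ± 47 in KO macrophages, and the KO effects differed by -0.68 ± 0.16 (adjusted p = 0.00473). Scarb2, the receptor that carries glucocerebrosidase to the lysosome, fell from 2036 ± 181 to 1364 ± 99 in microglia (adjusted p = 0.000302) and from 1732 ± 197 to 1288 ± 126 in macrophages (adjusted p = 0.0057).

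Transcripts of the 2 transcription factors did not rise in any comparison. Tfeb (chr17:47737030-47792419) had 231, 295 and 282 counts in WT microglia against 252, 289 and 256 in KO microglia. WT macrophages had 278, 287 and 233.7 counts, and KO macrophages 222, 253 and 267. All 4 groups overlapped, and the KO effects were -0.01 ± 0.12 (adjusted p = 0.952) and -0.10 ± 0.12 (adjusted p = 0.55). Tfe3 (chrX:7762560-7775202) had 978, 931 and 895 counts in WT and 757, 709 and 694 in KO microglia, and 746, 717 and 745 in WT against 707, 637 and 644 in KO macrophages. In microglia Tfe3 fell by 0.38 on the log2 scale (-0.38 ± 0.07, adjusted p = 0.000693), and while the macrophage libraries did not overlap, the change of -0.15 ± 0.07 was not called (adjusted p = 0.134). These factors are known to be controlled mainly by phosphorylation and export from the nucleus, which RNA counts do not measure.

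Among 13 other genes of the MiT family and of the nutrient sensing that controls it, 6 were higher and 1 lower in KO microglia and 3 higher in KO macrophages, where 21.9% and 20.6% of all genes were higher and lower in microglia and 16% higher in macrophages. Tfec, the MiT member found in macrophages, had 2.48 ± 0.68 counts in WT and 162 ± 25 in KO microglia (5.56 ± 0.23 on the log2 scale, adjusted p = 2.66e-11), and 27.9 ± 5.8 and 212 ± 24 in WT and KO macrophages (2.89 ± 0.23, adjusted p = 2.02e-07). Of the Rag GTPases, which recruit mTORC1 to the lysosome, Rragc rose in both origins, from 294 ± 13 to 533 ± 37 in microglia (adjusted p = 3.72e-06) and from 329 ± 6 to 483 ± 68 in macrophages (adjusted p = 0.000678). Rraga did so too, from 90.5 ± 5.1 to 177 ± 20 (adjusted p = 3.44e-05) and from 89.9 ± 2.3 to 129 ± 19 (adjusted p = 0.011). Rragd, one of the 6 called higher in microglia, passed the filter on low values only through KO microglia, with 21.9 ± 4.1 counts there and 3.55 ± 0.80 in WT microglia. Slc38a9, an amino acid sensor of the lysosomal membrane, fell in KO microglia from 285 ± 22 to 182 ± 7 (adjusted p = 7.8e-05).

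Of the 7 proton pump subunits on the list, 6 were higher in KO microglia and 5 in KO macrophages, and none was lower. Of all genes tested, 21.9% were higher and 20.6% lower in microglia, and 16% and 15.4% in macrophages. Their summed counts were 2958 ± 232 and 4712 ± 106 in WT and KO microglia, and 3060 ± 127 and 3680 ± 56 in WT and KO macrophages. The median log2 change was 0.54 in microglia and 0.49 in macrophages. Atp6v1a (chr16:44085402-44139705), the catalytic subunit that splits ATP, rose most among those with ample reads. It had 204, 170 and 160 counts in WT and 461, 467 and 584 in KO microglia, and 202.1, 160 and 222 in WT against 448, 422 and 421 in KO macrophages. The groups lay apart, and the changes were 1.49 ± 0.13 (adjusted p = 1.98e-07) and 1.15 ± 0.13 (adjusted p = 9.73e-06).

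Atp6v1b2, the B subunit that pairs with it, rose from 324 ± 35 to 471 ± 13 in microglia (adjusted p = 0.000179) and from 343 ± 23 to 482 ± 18 in macrophages (adjusted p = 0.000862). Atp6v1h, a regulatory subunit of V1, was 253 ± 35 and 259 ± 7 in WT and KO microglia and 286 ± 20 and 265 ± 37 in macrophages, and was not called. Atp6ap1, an accessory protein of pump assembly, rose from 675 ± 22 to 898 ± 46 in microglia (adjusted p = 0.00496) and from 545 ± 34 to 785 ± 137 in macrophages (adjusted p = 0.00172). Atp6v0d1, the common d subunit of V0, rose from 212 ± 24 to 297 ± 29 (adjusted p = 0.00547) and from 214 ± 18 to 286 ± 45 (adjusted p = 0.0228). The macrophage call of Atp6v0d1 was lost without the KO macrophage library of replicate 1 (adjusted p = 0.0859).

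Atp6v0d2 (chr4:19876841-19922605), a d subunit best known from osteoclasts, had few reads in any library. All 3 WT microglia libraries were at 0, and KO microglia had 15.7, 12.8 and 15.3 counts, at least 13.7-fold higher when 3 reads are assumed over the WT group (adjusted p = 5.59e-05). WT macrophages had 2.73, 0 and 5.76 and KO macrophages 16.0, 27.9 and 23.7 (adjusted p = 0.00141). Every KO library was above every WT library. Per kilobase, Atp6v0d2 made up 3.14% ± 0.19 of both d genes in KO microglia, and in macrophages 0.889% ± 0.954 in WT and 5.10% ± 1.83 in KO cells. The share was 3.68 points higher in KO cells, and Atp6v0d1 made up the rest. Atp6v0d2 passed the filter on low values only through KO libraries, and the share was chosen with earlier results of these data known. An exact permutation test within origin (two-sided, p = 0.005, the smallest that 400 relabelings allow) therefore adds no support beyond that call.

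The a subunits, which place the pump in different membranes, did not move together in microglia. Atp6v0a1 rose there from 1316 ± 112 to 2269 ± 57 counts (0.79 ± 0.10, adjusted p = 9.49e-06) and was 1473 ± 88 and 1408 ± 192 in WT and KO macrophages. The effects differed by -0.86 ± 0.14 (adjusted p = 0.000325). Genes for other isoforms of the a subunit fell in KO microglia. Atp6v0a2 went from 1208 ± 48 to 295 ± 11 (adjusted p = 2.52e-09) and Tcirg1, the a3 subunit, from 1598 ± 48 to 927 ± 146 (adjusted p = 5.35e-05). Per kilobase, Atp6v0a1 made up 27.6% ± 1.3 of the 3 genes in WT microglia and 58.6% ± 3.2 in KO microglia, against 35.6% ± 2.3 and 37.6% ± 6.3 in macrophages. The share of Tcirg1 was 47.8% ± 1.5 and 33.9% ± 3.7 in microglia, and 55.1% ± 4.3 and 54.7% ± 6.5 in macrophages. The difference of KO from WT was -13.8 points in microglia and -0.36 in macrophages. Averaged over both origins it was -7.09 points (exact permutation test, two-sided, p = 0.065), and -8.91 points without the KO macrophage library of replicate 1 (p = 0.025). The average therefore does not describe a fall shared by both origins. This share too was chosen with earlier results of these data known, so its p-values are not an independent test.

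**Figure D4:**
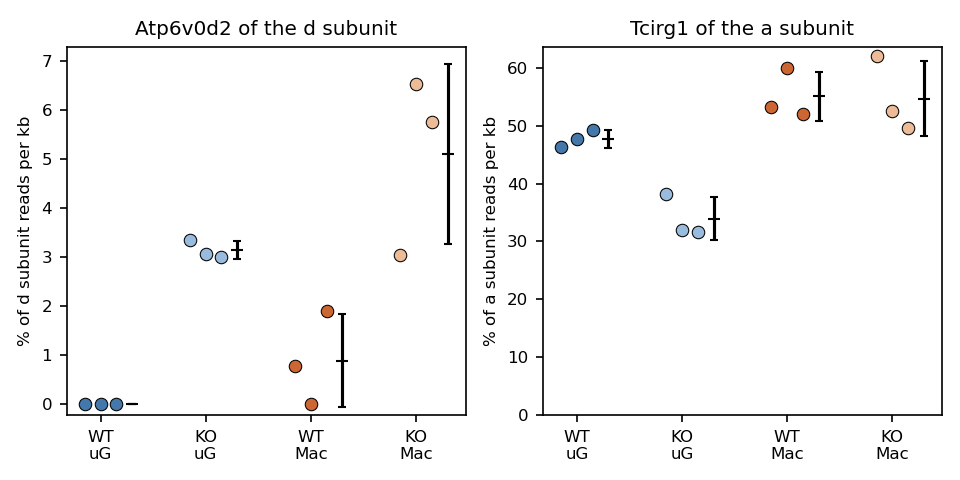
Shares of subunit isoform genes by library (points) with mean and SD beside them (n = 3 per group), from counts per kilobase of exon. Shown are Atp6v0d2 as a percent of both d subunit genes, and Tcirg1 as a percent of the 3 a subunit genes. The first is 0 in WT microglia, and the second does not overlap between WT (46.3 to 49.3) and KO (31.7 to 38.3) microglia but does in macrophages.

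Of 17 further genes for pump subunits, 12 could be tested, and 5 were higher and 3 lower in KO microglia, where 21.9% and 20.6% of all genes were called. In KO macrophages 2 were higher and 1 lower, against 16% and 15.4% of all genes. Atp6ap2, an accessory subunit also called the prorenin receptor, rose in both origins, from 342 ± 60 to 597 ± 75 in microglia (adjusted p = 0.000446) and from 266 ± 7 to 522 ± 118 in macrophages (adjusted p = 0.000226). Over 72 further lysosome genes on the lists, 66 were tested. In KO microglia 23 were higher and 13 lower with a median log2 change of 0.17, and in KO macrophages 19 were higher and 3 lower with a median of 0.22, beside the same shares of all genes. Cd68, a macrophage relative of the LAMP proteins, rose from 1720 ± 138 to 4217 ± 139 in microglia (adjusted p = 5.53e-06) and from 1569 ± 124 to 3594 ± 1168 in macrophages (adjusted p = 4.5e-05). Gm2a, the activator that presents GM2 ganglioside to hexosaminidase, rose in macrophages from 440 ± 11 to 1064 ± 70 (adjusted p = 1.55e-08). Sort1, a sorting receptor for lysosomal cargo, fell in KO microglia from 1697 ± 184 to 471 ± 30 (adjusted p = 1.76e-09).

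Without deletion, 19 of the 38 members differed between macrophages and microglia, and the median log2 change of the members was -0.07. Between the WT groups, 7 members were higher and 12 lower in macrophages, against 19.2% and 20.2% of all genes, and the split was 8 and 9 with total scaling or quantile normalization. Galc, Acp5, Mcoln1, Asah1, Sgsh, Lipa and Atp6v0d2 were the higher ones, and the call of Atp6v0d2 (10 reads against 0, at least 2.65-fold) was lost under 18 of 24 alternative settings. Of the 19 calls, 13 held under every alternative. Lipa was lost under 6 of 25, and of the lower ones Npc1 under 10, Atp6ap1 under 8, Arsb under 3 and Hexa under 1. Lgmn was 1.41 lower on the log2 scale (-1.41 ± 0.09, adjusted p = 8.75e-09), and Naglu, Ids, Man2b1, Tpp1, Gaa and Smpd1 had log2 changes of -0.52 to -1.04. This comparison shares its WT libraries with the KO comparisons of each origin. It cannot tell cell origin from irradiation, transplantation and the killing of host microglia.

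Between the KO groups 7 of the 38 members differed, fewer than in any other comparison. In macrophages 6 were higher (15.8% of members) and 1 lower (2.63%) than in microglia, against 5.45% and 5.05% of all genes. The higher ones were Acp5, Psap, Sgsh, Npc1, Arsb and Npc2, and the lower one was Atp6v0a1 (-0.70 ± 0.10, adjusted p = 0.000188). Without the KO macrophage library of replicate 1, 5 were higher and 5 lower, as Gaa, Idua, Fuca1 and Atp6ap1 were then called lower and Npc2 was not called.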

How the data were processed

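The authors deposited 1 table of log2 values for 25904 genes in the 12 libraries; the submitters' processing notes name bcl2fastq, CASAVA, STAR and GRCm38, with versions, counter and strand setting not given in the sources used here. After undoing the log and subtracting 1, all values of a library were whole multiples of 1 step (100% of 310848 values, within 0.01 reads), so the deposited unit is log2(count divided by a size factor + 1). One read was worth 0.718 to 1.6 normalized counts. Symbols, coordinates and exon lengths came from GENCODE M21 on GRCm38.

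Genes with at least 10 normalized counts in at least 3 libraries were tested (12519) with limma 3.58.1 in R 4.3.3 (lmFit, eBayes with a trend), 1 mean per group, and Benjamini-Hochberg adjustment over all genes tested at 0.05. Log2 changes use normalized count + 1, so those of low genes are understated, and p-values measure the spread between pools. Replicate numbers were given in accession order. Full values are given for Tfeb, Tfe3, Lamp1, Lamp2 and members called with a log2 change of at least 1 in size. Of the other lists, at most 2 called genes per direction are named, plus the a subunit genes Tcirg1 and Atp6v0a2. One planned ratio is not reported here. The members, the lists and the subunit shares were chosen with earlier results of these data known. Shares of subunits were tested as percentages because WT microglia had 0 reads of Atp6v0d2. Intervals and floors (3 reads) cover counting error only. Exons of 9 members overlap other genes of the table, in which strands cannot be told apart. The fit was checked on simulated data; 25 alternatives were run.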

Additional observations from a re-analysis of the deposited data

Results flagged for a closer look

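For 13 of the 38 members, the KO effect differed between macrophages and microglia by the test of the difference itself (limma, adjusted p under 0.05), and each is given here as the macrophage effect minus the microglia effect on the log2 scale. The difference was positive in 10 (26.3% of members) and negative in 3 (7.9%), against 13% and 12.9% of all genes tested. In 8 of the 13 members the call held under all alternatives run. These were Lgmn (1.61, adjusted p = 3.01e-07), Galc (-1.62, adjusted p = 1.01e-07), Npc1 (0.98, adjusted p = 1.41e-05), Arsb (0.91, adjusted p = 0.000703), Psap (0.87, adjusted p = 0.000246), Man2b1 (0.75, adjusted p = 0.000103), Mcoln1 (-0.68, adjusted p = 0.00473) and Atp6v0a1 (-0.86, adjusted p = 0.000325). In the other 5 it was lost under total scaling and some other alternatives: Naglu (0.58, adjusted p = 0.0278), Tpp1 (0.57, adjusted p = 0.018), Ppt1 (0.41, adjusted p = 0.0374), Sgsh (0.34, adjusted p = 0.0378) and Npc2 (0.33, adjusted p = 0.0345). In Lgmn, Naglu, Galc, Mcoln1 and Atp6v0a1 the KO effect was called in microglia and not in macrophages, in Psap, Npc2, Tpp1 and Ppt1 the reverse, and Man2b1 fell in one and rose in the other. Groups of 3 libraries are too small to ask whether a single library is an outlier.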

How the results depend on the processing

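No paired analysis was possible because the labels give no replicate numbers. Of 88 member calls over the 5 comparisons, 66 held under every alternative and 22 were lost under at least 1, and none changed direction. In KO against WT, 24 of 27 calls held in microglia and 16 of 22 in macrophages. The 10 members with a more positive KO effect in macrophages became 5 with total scaling, 5 without the mean-variance trend, 5 with Ddx3y as a covariate for the sex of the pooled mice, and 5 at an adjusted p under 0.01. Leaving out each library in turn gave 6 to 11 of them, the 6 without WT microglia replicate 1 or WT macrophage replicate 2, and 3 to 7 with a more negative effect, the 7 without KO macrophage replicate 1 and 5 without WT microglia replicate 1. Members lower in KO macrophages than in KO microglia numbered 1 to 5, the 5 without KO macrophage replicate 1. The mean difference in the Tcirg1 share over both origins ran from -8.91 to -5.79 points, and passed the test without that library alone. Total scaling moved the median gene by at most 0.07 (log2) in any comparison. The cause of these shifts was not tested. Depth limits Acp5, Atp6v0d2 and Rragd, whose lower groups held few reads.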
